A study of Mus musculus with 33 samples.

Results

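The genes examined here serve the clearance of lung liquid at birth and the glucocorticoid signal that prepares the lung for it. The list named 9 genes, which are Sgk1, Scnn1a, Scnn1b, Scnn1g, Atp1b1, Aqp1, Nr3c1, Hsd11b1 and Fkbp5, and members were taken as every probe set that the array annotation assigned to these symbols or their older names, whatever its values. Of the 9 genes, 6 were found, with 8 probe sets, among 8949 genes of the annotation. The 3 subunits of the epithelial sodium channel (Scnn1a, Scnn1b and Scnn1g) had no probe set assigned in the annotation used here and were left out. No measured value entered the choice.

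Before birth the lung epithelium secretes liquid into the airspaces. At birth it turns to absorption, in which sodium enters through the epithelial sodium channel, is pumped out by the Na,K-ATPase, and draws water with it. Glucocorticoids, which rise toward term, act through a receptor that binds DNA and raises transcription of channel subunits, of the kinase Sgk1 and of many other genes.

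The data were 33 Affymetrix MGU74Av2 arrays of RNA from whole lung or whole liver of mice, in 11 groups of 3. Lung was taken from fetuses on day 21 of gestation (F21) and from newborns 2 h, 6 h, 12 h and 24 h after birth into room air (21% oxygen). A separate series of dams was placed in 10% oxygen. After 12 h of this exposure lung was collected from fetuses at F21. Lung of newborns delivered into 10% oxygen was collected at 2 h and 6 h. Liver was taken at F21, 2 h and 6 h in room air. The labels write the strain as C57/BL, C57/Black or BL/57 and leave it out for 1 F21 array, and the study's methods name C57B/6J dams. No allele or drug was applied as a treatment, and the study's methods state that the mice were killed with sodium pentobarbital. The sources used here do not say whether the 3 samples of a group came from separate animals or litters, so the p-values measure the spread between these samples, which may be technical. The number of arrays, 3 per group, limits the precision throughout.

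The values were signals of the MAS5 software, a scaled intensity that has no fixed relation to RNA copies, so levels of different probe sets were not compared. The 10% oxygen arrays stood apart. Their ratio of the 3′ to the 5′ Gapdh control probe set, which rises when RNA is degraded or cDNA is short, ran from 1.21 to 9.40, against 0.734 to 1.15 on the room air lung arrays and 1.30 to 1.86 on the liver arrays. The median standard deviation of log2 signal within a group was 0.532 to 0.627 in 10% oxygen, 0.294 to 0.367 in room air lung and 0.407 to 0.430 in liver. On 1 array, the 10% oxygen F21 sample 2, the summed signal of 5 hepatocyte markers was 2808, against 116 to 130 on the room air F21 lung arrays and 93904 to 106072 in F21 liver. The organ labels held otherwise. The 5 hepatocyte markers were each lower in F21 lung than in liver, and the 4 tested alveolar type 1 markers and both tested type 2 markers were each higher. In whole tissue, fewer cells of a type and less RNA per cell cannot be told apart.

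In the mouse genome build GRCm38.p6 as annotated by RefSeq, Atp1b1 spans chr1:164437099-164458355 and Hsd11b1 chr1:193221640-193264045. Aqp1 spans chr6:55336299-55348555, Sgk1 chr10:21882184-21999903 and Fkbp5 chr17:28398753-28486149. Sgk1, the member that changed most, has 6 annotated start windows, each reaching from 250 bases before a start site to 50 bases after it. All windows were searched on both strands for the palindromic glucocorticoid receptor element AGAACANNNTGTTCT and for its 6-base arm AGAACA, which lies in the element, so that each element also counts as arms. The element was found in 3 of 32851 windows of all genes (0.00913%), and 1 of these 3 was the fifth Sgk1 window, where it spans chr10:21993701-21993715, from 189 to 175 bases before the start. The 3 elements are shown to compare their spacers, in lower case, between the arms in capitals.
Sgk1: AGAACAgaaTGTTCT
Acnat2: AGAACAcaaTGTTCT
Gm35041: AGAACAcggTGTTCT

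The arm was found in 6233 of the 32851 windows (19%) and in 3 of the 6 Sgk1 windows. It was in none of the 6 windows of the other members searched, which were Scnn1b, Scnn1g, Atp1b1, Aqp1, Hsd11b1 and Fkbp5. The 250 bases before the start of the 3 Sgk1 windows that hold an arm are shown with the arms, on either strand, in capitals, and beside them the window of Atp1b1, the other member that passed the test at 2 h. A match describes the letters in a window and does not show a bound site.
Sgk1, the first window, chr10:21881934-21882183, + strand: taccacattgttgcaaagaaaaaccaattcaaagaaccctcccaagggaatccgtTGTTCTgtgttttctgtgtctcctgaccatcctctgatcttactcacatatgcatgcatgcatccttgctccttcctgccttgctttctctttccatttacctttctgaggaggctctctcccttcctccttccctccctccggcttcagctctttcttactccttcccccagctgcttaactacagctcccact
Sgk1, the fourth window, chr10:21991973-21992222, + strand: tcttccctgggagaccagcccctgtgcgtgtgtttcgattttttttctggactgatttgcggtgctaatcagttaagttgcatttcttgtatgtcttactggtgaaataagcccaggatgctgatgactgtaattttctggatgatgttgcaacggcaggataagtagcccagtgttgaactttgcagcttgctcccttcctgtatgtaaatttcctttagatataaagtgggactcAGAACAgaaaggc
Sgk1, the fifth window, chr10:21993640-21993889, + strand: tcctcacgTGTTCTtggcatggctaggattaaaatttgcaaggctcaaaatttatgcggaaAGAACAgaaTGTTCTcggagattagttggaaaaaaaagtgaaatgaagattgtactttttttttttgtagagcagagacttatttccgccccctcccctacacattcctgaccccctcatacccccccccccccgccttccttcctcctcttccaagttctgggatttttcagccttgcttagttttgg
Atp1b1, chr1:164458356-164458605, - strand: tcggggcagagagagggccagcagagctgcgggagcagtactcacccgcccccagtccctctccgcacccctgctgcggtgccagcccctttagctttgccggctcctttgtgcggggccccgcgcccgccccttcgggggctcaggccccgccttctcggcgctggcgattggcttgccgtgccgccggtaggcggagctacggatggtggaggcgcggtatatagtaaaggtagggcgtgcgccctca

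The windows differed in composition. The sixth Sgk1 window, the furthest downstream, was 69.7% G and C, and the other 5 were 45.0% to 49.7%. The windows of Fkbp5 and Atp1b1 were 70.7% and 71.0% G and C, and that of Aqp1 was 62.7%.

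The levels of each member on all arrays are plotted first. Sgk1 and Fkbp5 had their lowest mean at F21 in room air lung, in 10% oxygen lung and in liver, and Hsd11b1 had its highest mean there. In room air Aqp1 was at its F21 level at 2 h, when Sgk1 was at its highest.

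**Figure D1:**
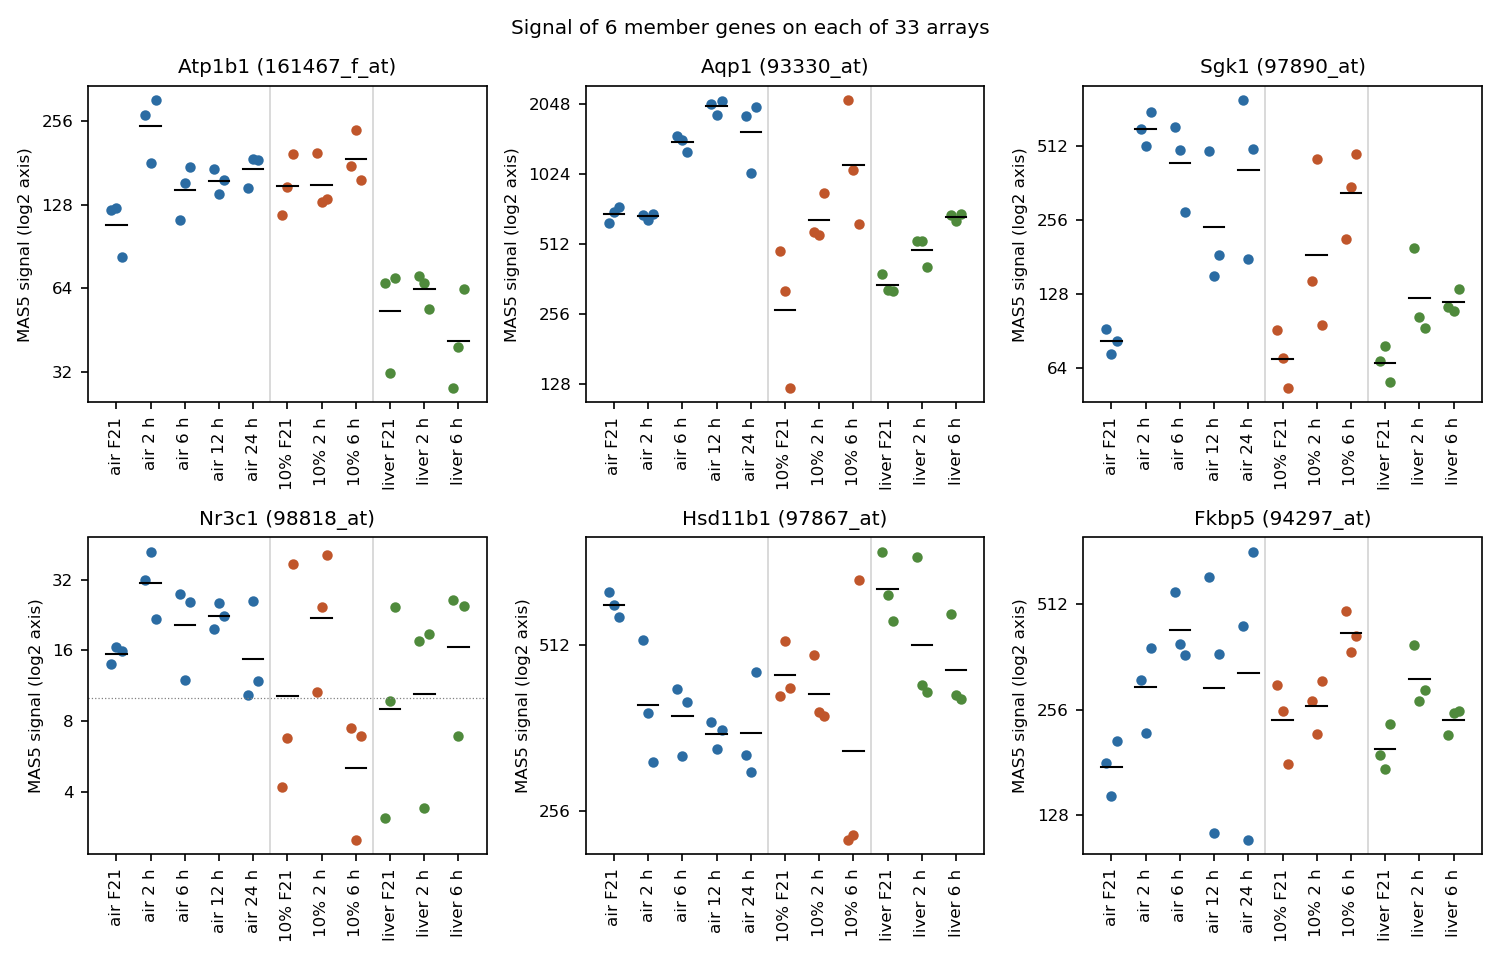
MAS5 signal (log2 axis) of the probe set of highest mean signal of each of the 6 member genes on 33 arrays, grouped by lung in room air (blue), lung in 10% oxygen (orange) and liver (green). Each point is 1 array and each line the mean of 3 log2 signals. The dotted line in the Nr3c1 panel is the floor of 10 applied before tests. Sgk1 at 2 h in room air (512.5 to 703.5) lies above F21 (73.1 to 92.1).

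Among the transport genes, Atp1b1 encodes the beta subunit that carries the Na,K-ATPase to the basolateral membrane. Its leading probe set, 161467_f_at, gave 122.2, 124.8 and 83.1 at F21 and 269.2, 181.2 and 303.1 at 2 h in room air. Every 2 h array was above every F21 array, and the means were 110 ± 23.4 and 251 ± 62.9 (SD, n = 3). The rise was 2.27-fold, a log2 change of 1.18 ± 0.28 (SE, adjusted p = 0.0160, limma). At 6 h the signals were 112.6, 153.4 and 175.4, back in reach of F21. The log2 change from F21 was 0.42 at this time, then 0.52 at 12 h and 0.67 at 24 h, with adjusted p from 0.366 to 0.618. The suffix of this probe set marks probes shared within a gene family or group, and the call was lost without F21 sample 3 (0.99, adjusted p = 0.104), without 2 h sample 1 (1.11, adjusted p = 0.0733) or without 2 h sample 3 (1.03, adjusted p = 0.105). Over its 16 alternatives the adjusted p ran from 0.000411 to 0.168. The other probe set of Atp1b1, 160500_at, read 4.1 to 52.2 on the 33 arrays, was never among the brightest 40% and was not tested.

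In 10% oxygen Atp1b1 showed no such difference at 2 h. The 3 arrays read 117.1, 147.6 and 194.3 at F21 and 196.9, 130.4 and 134.0 at 2 h, and the groups overlapped. The log2 change was 0.01 (95% interval -0.56 to 0.59). The 2 h change in 10% oxygen minus that in room air was -1.17 (95% interval -1.98 to -0.36, adjusted p = 0.209), which did not pass. In liver the gene was lower, with 31.9 to 69.8 at F21, below each F21 lung array. The F21 difference between lung and liver was 1.03 ± 0.33 log2 units (adjusted p = 0.0174). It was lost without liver sample 2 (0.67, adjusted p = 0.166), without lung sample 1 (0.94, adjusted p = 0.0672) or without lung sample 2 (0.93, adjusted p = 0.0702), and over 16 alternatives the adjusted p ran from 0.00518 to 0.175.

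Aqp1, the water channel of lung microvessels and red cells, did not move at 2 h in room air and was high from 6 h onward. The leading probe set, 93330_at, read 633.6, 703.3 and 741.6 at F21 and 681.7, 650.6 and 693.1 at 2 h. At 6 h the arrays read 1499.5, 1444.3 and 1277.3, and at 12 h 2052.6, 1852.1 and 2127.2. The 24 h arrays read 1816.5, 1040.0 and 2003.9. No array from 6 h onward was as low as any at F21 or 2 h. The log2 change from F21 was -0.03 at 2 h, 1.02 at 6 h (adjusted p = 0.231), 1.54 ± 0.37 at 12 h (adjusted p = 0.0382) and 1.17 at 24 h (adjusted p = 0.160), so 12 h alone passed. Fitted on the 6 compared arrays alone, the 6 h change passed as well (adjusted p = 0.00744). The 12 h call was lost on leaving out any 1 of its 6 arrays, with log2 changes of 1.47 to 1.60 and adjusted p from 0.0818 to 0.133. Over its 16 alternatives the adjusted p ran from 0.000861 to 0.133. The change from 2 h to 6 h, a comparison added after the values were seen, was 1.06 ± 0.37 (adjusted p = 0.121).

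The 10% oxygen lungs began lower in Aqp1. At F21 they read 477.5, 321.3 and 122.9, each below every room air F21 array, a log2 difference of -1.38 ± 0.37 (adjusted p = 0.0248). The array of 122.9 also had the highest Gapdh ratio, 9.40. With the log2 Gapdh ratio as a covariate the difference was -0.31 (adjusted p = 0.733), and without that array it was -0.82 (adjusted p = 0.190). It was also lost without any 1 of the room air F21 arrays (adjusted p from 0.0663 to 0.0729), and over 16 alternatives the adjusted p ran from 0.00458 to 0.733. The part of RNA quality in the result was not tested further.

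After birth into 10% oxygen Aqp1 rose by 6 h. It read 575.8, 562.4 and 853.3 at 2 h and 2131.1, 1070.8 and 625.1 at 6 h, above all 3 of its own F21 arrays at both times. The log2 change was 1.29 at 2 h (adjusted p = 0.0641) and 2.08 ± 0.37, or 4.23-fold, at 6 h (adjusted p = 0.00145). Against the room air F21 lungs the 6 h value was 0.70 (adjusted p = 0.243), and over its 17 alternatives the adjusted p ran from 0.000247 to 0.442. The 2 h call passed without F21 sample 1 (1.71, adjusted p = 0.0117). The 2 h and 6 h changes in 10% oxygen minus those in room air were 1.33 (95% interval 0.24 to 2.41, adjusted p = 0.280) and 1.06 (-0.02 to 2.14, adjusted p = 0.595), neither past the threshold.

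Liver showed a rise of Aqp1 of the same order at 6 h. The arrays read 382.3, 325.1 and 323.0 at F21, 528.1, 530.4 and 406.8 at 2 h, and 682.5, 642.9 and 691.6 at 6 h, with no overlap between the 3 groups. The log2 change was 0.50 ± 0.16 at 2 h (adjusted p = 0.203) and 0.97 ± 0.16, or 1.96-fold, at 6 h (adjusted p = 0.00617). The 6 h change in lung minus that in liver was 0.05 (95% interval -0.92 to 1.01). At F21 Aqp1 was higher in lung than in liver by 1.01 ± 0.33 log2 units (adjusted p = 0.0216). That call was lost without lung sample 2 or 3 or liver sample 2 or 3 (0.96 to 1.0 log2 units, adjusted p from 0.0549 to 0.0638) and with the Gapdh ratio as a covariate (0.62, adjusted p = 0.0776), the range over 16 alternatives being 0.000778 to 0.0776. The dim second probe set, 161559_i_at, read 10.1 to 118.2 on the lung arrays and passed in no comparison.

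Endothelial and red cell markers are given beside Aqp1, since both cell types use the gene. All 6 endothelial markers were on the array and none was under the floor of 10 on all 3 arrays of a group. Their summed signal in room air ranged between 1031 and 1082 at F21 and between 1371 and 1646 at 2 h. It lay between 1046 and 1145 at 6 h, between 950 and 1171 at 12 h and between 1196 and 1572 at 24 h, and none of the 6 passed at 6 h, 12 h or 24 h. The summed signal of the 4 red cell markers on the array lay between 31552 and 36938 in room air lung at F21 and between 14912 and 19381 at 2 h. It was 30838 to 37399 at 6 h, between 14702 and 27094 at 12 h and between 27071 and 30669 at 24 h. At 2 h 1 marker of each list passed, with Cdh5 higher (1.01, adjusted p = 0.00997) and Hba-a1 lower (-1.05, adjusted p = 0.0356), and no tested red cell marker passed later. At 12 h, where Aqp1 was highest, the endothelial sum lay on both sides of its F21 range and the red cell sum lay below its own. The single markers went both ways at 12 h. The log2 change was -0.81 for Hba-a1, -0.39 for Alas2 and 0.95 for the anion exchanger Slc4a1. Over the 6 endothelial markers it ran from -0.63 (Kdr) to 1.05 (Tek), with a median of 0.20. In 10% oxygen the red cell sum, like Aqp1, was higher on every 2 h array than on any F21 array. It ranged between 22765 and 33755 at F21, between 37666 and 58647 at 2 h and between 30896 and 54143 at 6 h, with none of 3 tested past the threshold at either time. At F21, 1 of 3 tested red cell markers was lower in 10% oxygen than in room air, where 7.13% of all tested probe sets passed. It was Alas2, which makes heme in red cell precursors (-1.47, adjusted p = 0.00799, limma). Hba-a1 (-0.24, adjusted p = 0.682) and Slc4a1 (-0.14, adjusted p = 0.890) did not pass. The endothelial sum in 10% oxygen lay between 1051 and 1274 on all 9 arrays. In liver the red cell sum, most of it from globin, lay between 43558 and 53443 at F21 and between 46685 and 53779 at 6 h, while at 6 h 2 of the 4 red cell markers rose, Alas2 (0.66, adjusted p = 0.0179) and the anion exchanger Slc4a1 (0.90, adjusted p = 0.0348). What these cells contribute to Aqp1 was not tested.

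**Figure D2:**
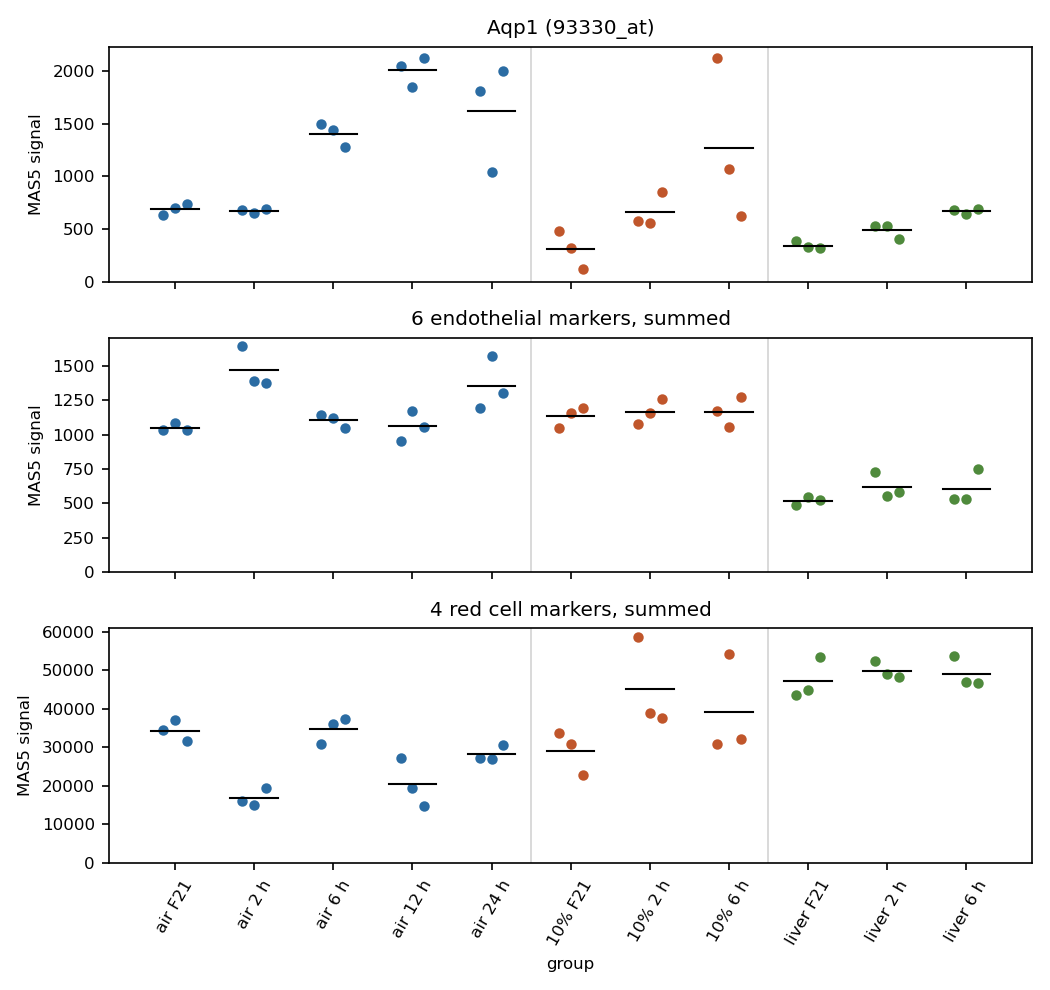
MAS5 signal (linear axis from 0) of Aqp1, of 6 endothelial markers summed and of 4 red cell markers summed, on 33 arrays in 11 groups. Points are arrays and lines group means. Aqp1 in room air lung runs from 692.8 at F21 to 2011 at 12 h, while the endothelial sum lies between 950 and 1171 at 12 h.

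Sgk1 encodes a kinase that phosphorylates the ubiquitin ligase Nedd4l and so keeps sodium channels at the cell surface. Probe set 97890_at gave 92.1, 73.1 and 82.6 at F21 and 600.4, 512.5 and 703.5 at 2 h in room air. The means were 82.6 ± 9.50 and 605 ± 95.6 (SD, n = 3), the log2 change was 2.87 ± 0.51 (adjusted p = 0.00264), and the call held in all 16 alternatives. Sgk1 and Atp1b1 were thus the 2 members that passed at 2 h, of 6 probe sets tested, where 4.24% of all 6931 tested probe sets passed.

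From 6 h the Sgk1 arrays spread out. They read 608.4, 489.9 and 275.2 at 6 h, 486.8, 151.5 and 184.3 at 12 h, and 782.9, 177.3 and 496.3 at 24 h. Every one of these 9 arrays was above all 3 F21 arrays. The log2 changes from F21 were 2.40 ± 0.51 (adjusted p = 0.0198), 1.54 ± 0.51 (adjusted p = 0.169) and 2.32 ± 0.51 (adjusted p = 0.0361). Sgk1 was the 1 member that passed at 6 h, where 1.02% of all tested probe sets passed, Aqp1 the 1 that passed at 12 h (1.34% of all), and Sgk1 the 1 that passed at 24 h (0.577% of all).

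The later Sgk1 calls depended on single arrays. The 6 h call was lost without any 1 of the F21 arrays (log2 2.32 to 2.48, adjusted p from 0.0612 to 0.0903), without 6 h sample 1 (2.16, adjusted p = 0.116) or without 6 h sample 2 (2.31, adjusted p = 0.0856). The 24 h call was lost without any 1 of the F21 arrays (2.23 to 2.40, adjusted p from 0.0951 to 0.141), without 24 h sample 1 (1.85, adjusted p = 0.211) or without 24 h sample 3 (2.18, adjusted p = 0.187). Over 16 alternatives each, the adjusted p ran from 0.000661 to 0.141 at 6 h and from 0.0014 to 0.494 at 24 h. The change from 2 h to 6 h was -0.47 (95% interval -1.52 to 0.59), and no member passed in that added comparison (limma, 2 of 6 at an unadjusted p under 0.05, and 1 of 6 by the methods' test after adjustment), where 3.46% of all passed.

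In 10% oxygen every Sgk1 array at 2 h and 6 h was above all 3 at F21, and the 6 h change passed. It read 91.7, 70.1 and 53.1 at F21, 144.0, 452.4 and 95.5 at 2 h, and 214.0, 348.1 and 473.0 at 6 h. The log2 change was 1.40 ± 0.51 at 2 h (adjusted p = 0.155) and 2.23 ± 0.51, or 4.69-fold, at 6 h (adjusted p = 0.0105). No member passed at 2 h in 10% oxygen (limma, 2 of 6 at an unadjusted p under 0.05, none by the methods' test), where 2.65% of all tested probe sets passed. At 6 h, 2 members passed, Sgk1 and Aqp1, where 6.31% of all passed. The Sgk1 call at 6 h was lost with array weights and by the methods' test after adjustment. By that test it passed at the methods' own threshold, an unadjusted p under 0.01, where 217 of all 6931 tested probe sets did. Over 17 alternatives the adjusted p ran from 0.00474 to 0.265.

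Compared directly at 2 h, the 3 lungs born into 10% oxygen had less Sgk1 than the 3 born into room air. The highest of the former, 452.4, was below the lowest of the latter, 512.5. The log2 difference was -1.71 ± 0.51 (adjusted p = 0.0249, limma). Sgk1 was the 1 of 6 tested member probe sets that passed in this added comparison, a share like the 16.8% of all tested probe sets. The Gapdh ratio ran from 1.81 to 5.39 on these 10% oxygen arrays and from 0.770 to 0.873 on these room air arrays. With that ratio as a covariate the Sgk1 call held, and the part of RNA quality was not tested further. The call was lost without room air sample 1 (-1.71, adjusted p = 0.0674) or 3 (-1.59, adjusted p = 0.0905), or without 10% oxygen sample 1 (-1.53, adjusted p = 0.0829) or 3 (-1.23, adjusted p = 0.139), within a range of 0.00424 to 0.228 over 16 alternatives. The difference of the 2 h changes, each from its own F21 group, was -1.47 (95% interval -2.97 to 0.02, adjusted p = 0.388).

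No member passed in the differences of changes between the oxygen settings. At 2 h, 2 of 6 had an unadjusted p under 0.05 and 0.476% of all tested probe sets passed, and at 6 h none had and 0.0144% passed (limma). At F21, before birth, Aqp1 was the 1 member that differed between 10% oxygen and room air, where 7.13% of all passed, and Sgk1 differed by -0.23 (95% interval -1.29 to 0.82).

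In liver every Sgk1 array after birth was above those at F21, and neither change passed. It read 68.5, 78.6 and 56.2 at F21, 196.8, 103.0 and 92.9 at 2 h, and 113.7, 109.2 and 133.8 at 6 h. The log2 changes were 0.88 ± 0.32 (adjusted p = 0.266) and 0.82 ± 0.32 (adjusted p = 0.262). No member passed in liver at 2 h (limma, 3 of 4 tested at an unadjusted p under 0.05, none by the methods' test), where 0.913% of all 5693 tested probe sets passed, and Aqp1 was the 1 that passed at 6 h, where 1.84% passed. The 2 h change in lung minus that in liver was 1.99 ± 0.68 (95% interval 0.60 to 3.38, adjusted p = 0.183), and the 6 h difference was 1.58 ± 0.68 (adjusted p = 0.483). No member passed in either difference (limma, 1 of 6 at an unadjusted p under 0.05 in each), where 0.929% and 0.196% of all 7640 tested probe sets passed. At F21, where 28% of all probe sets differed between the organs, Atp1b1 and Aqp1 passed and Sgk1 differed by 0.29 (95% interval -0.69 to 1.27).

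Epithelial markers are given beside Sgk1 and Atp1b1. The 3 airway markers summed to 905 to 2897 at F21, 5048 to 7724 at 2 h and 7625 to 9235 at 6 h in room air, and of the 2 tested none passed at 2 h and 1 rose at 6 h. The 3 alveolar type 2 markers on the array summed to 47065 to 59352 at F21 and 22331 to 24419 at 2 h, and 1 of the 2 tested fell at 2 h. The 4 type 1 markers on the array summed to 7257 to 8628 at F21 and 4956 to 7908 at 2 h, and none of the 4 passed. No marker of these lists was under the floor of 10 on all 3 arrays of a lung group, and their part in the Sgk1 and Atp1b1 results was not tested.

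**Figure D3:**
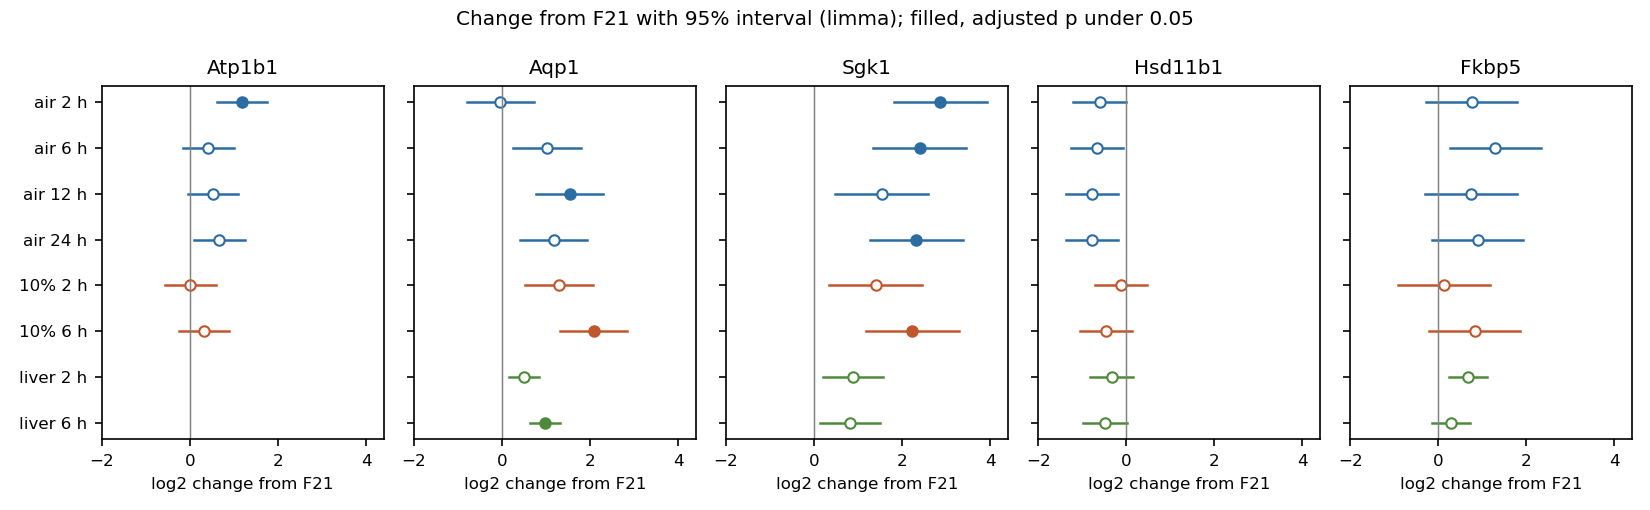
Log2 change from F21 of the same organ and oxygen setting for the 5 tested leading probe sets, with the 95% interval of the limma fit, in 8 comparisons. Atp1b1 was not tested within liver and has no liver points. Filled points had an adjusted p under 0.05. Sgk1 at 2 h in room air lies at 2.87 (1.81 to 3.93), and Hsd11b1 lies below 0 in all 8.

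Nr3c1 encodes the glucocorticoid receptor. Its probe set 98818_at was dim, with 2.5 to 42.0 on the lung arrays and 3.1 to 26.3 on the liver arrays, and was under the floor of 10 on 5 of 24 and 4 of 9 of them. It was among the brightest 40% of probe sets on no array and was not tested. At 2 h in room air it read 32.0, 42.0 and 21.8, and at F21 14.0, 16.6 and 15.9.

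Hsd11b1 encodes the reductase that regenerates active corticosterone inside cells. Probe set 97867_at read 636.9, 604.5 and 573.2 at F21 in room air and 521.7, 385.7 and 314.0 at 2 h. At 6 h it read 426.2, 322.4 and 402.3, at 12 h 370.9, 331.0 and 359.1, and at 24 h 323.6, 301.2 and 455.8. All 12 newborn arrays were below all 3 F21 arrays. The log2 changes were -0.60, -0.67, -0.77 and -0.77, each ± 0.29 (SE), and none passed (adjusted p from 0.235 to 0.349). The values in 10% oxygen overlapped, with 413.4 to 520.2 at F21, 380.5 to 490.2 at 2 h, and 227.4, 232.1 and 669.1 at 6 h. Without the sample of 669.1 the 6 h change was -0.97 (adjusted p = 0.0109), against -0.46 (adjusted p = 0.378) with it. In liver the signal was 564.4 to 752.8 at F21, 420.7 to 737.2 at 2 h and 407.3 to 581.5 at 6 h. Mesenchymal cells use the gene, and the 5 mesenchymal markers summed to 3690 to 4865 at F21 and 2752 to 3616 at 12 h in room air, with none of the 5 passing at any of the 4 times. In 10% oxygen they summed to 4843 to 6053 at F21 and 2765 to 3456 at 6 h. There 4 of the 5 fell (Col1a1, Col1a2, Col3a1 and Acta2), where 6.31% of all tested probe sets passed, and the median log2 change of the list was -0.80. The Gapdh ratio ran from 1.21 to 9.40 on these F21 arrays and from 1.37 to 5.82 on these 6 h arrays. The part of mesenchymal cells in the Hsd11b1 values was not tested.

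Fkbp5 encodes an Hsp90 co-chaperone that lowers the affinity of the receptor for hormone and is itself induced by it. Probe set 94297_at read 180.5, 145.3 and 207.8 at F21 in room air, 312.1, 218.9 and 384.3 at 2 h, and 555.7, 394.8 and 368.1 at 6 h. All 2 h and 6 h arrays were above F21. At 12 h it read 611.6, 113.3 and 369.0, and at 24 h 443.5, 108.8 and 723.9, so that 1 array at each of these times was below F21 and the other two above it. The log2 changes were 0.76, 1.30, 0.74 and 0.89, each ± 0.50, and none passed (adjusted p from 0.276 to 0.663). Without 24 h sample 2 the 24 h change was 1.69 (adjusted p = 0.0471), and over the alternatives no other call was made at that time. With the compared groups alone the 6 h change of 1.30 passed (adjusted p = 0.0134). In 10% oxygen Fkbp5 read 302.1, 254.4 and 179.1 at F21, 270.5, 217.4 and 308.7 at 2 h, and 490.9, 374.6 and 415.5 at 6 h, a log2 change of 0.82 at 6 h (adjusted p = 0.359). In liver it read 189.7, 173.2 and 232.5 at F21 and 391.1, 270.3 and 292.3 at 2 h, a log2 change of 0.67 ± 0.20 (adjusted p = 0.176).

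Ordered by mean log2 signal over the 11 groups, Sgk1 was highest in lung at 2 h in room air, followed by 6 h and 24 h, and lowest in the 3 F21 groups. The only neighbours in that order that did not overlap were liver at 6 h and room air lung at F21. For Atp1b1 the break was between the 8 lung groups and the 3 liver groups, and for Hsd11b1 and Fkbp5 every neighbouring pair overlapped. Aqp1 was highest in room air lung at 12 h, 24 h and 6 h, and lowest in 10% oxygen lung at F21.

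The low arrays of Fkbp5 at 12 h and 24 h were also the lowest of their groups in Sgk1. Over the 24 lung arrays, with each value taken as its deviation from the mean of its group, Pearson's r between Sgk1 and Fkbp5 was 0.545. This is a description over arrays that share groups and scaling. Of the tested probe sets with 1 gene symbol, 3.80% had a higher r with Sgk1. The list of glucocorticoid target genes was set beside them in the same way. Of 25 other target genes tested, 20 had an r above 0 with Sgk1 and 22 with Fkbp5, with medians of 0.501 and 0.445, where the median over the tested probe sets with 1 gene symbol was -0.02 for each. The highest values, named after they were seen, were 0.881 for Sgk1 with Nfkbia, an inhibitor of NF-kB, and 0.888 for Fkbp5 with Zbtb16, a zinc finger repressor. Aqp1 had an r of 0.481 with Fkbp5 and of 0.0650 with Sgk1.

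**Figure D4:**
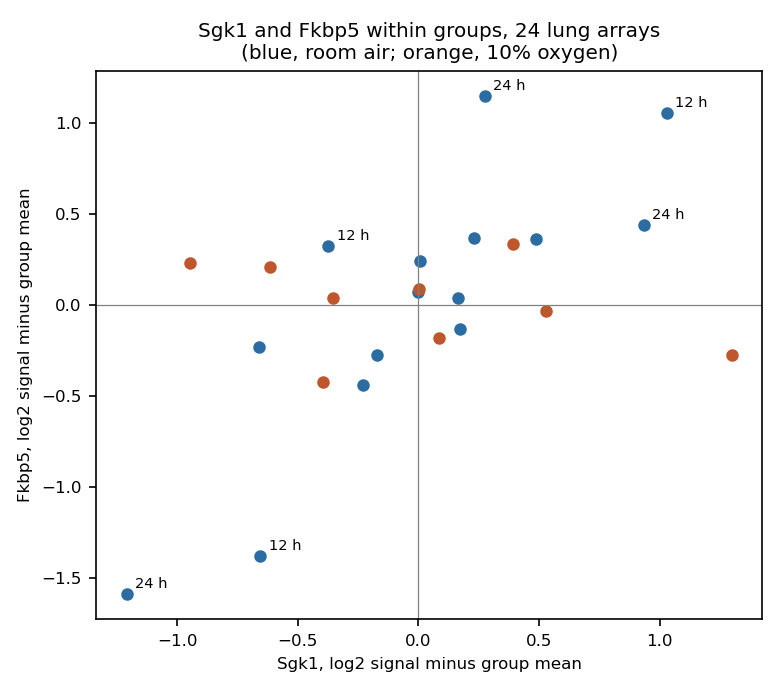
Log2 signal minus the mean of the array's own group for Sgk1 (x axis) and Fkbp5 (y axis) on 24 lung arrays, blue for room air and orange for 10% oxygen. The arrays of 12 h and 24 h are labelled, and 1 of each lies at the lower left. Pearson's r was 0.545.

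By level over the 24 lung arrays, the probe sets most like Sgk1 were 2 of Errfi1, a feedback inhibitor of the epidermal growth factor receptor (r = 0.912 and 0.876), and 1 of Klf6, a zinc finger transcription factor (0.894). Those most like Aqp1 were of Ctsd, a lysosomal protease (0.904), Cystm1 (0.872) and Hp, haptoglobin (0.865). For Fkbp5 they were Perp (0.809), Sesn1 (0.806) and Map3k6 (0.796), for Hsd11b1 Ccnd1, a cyclin of the G1 phase (0.727), Swi5 (0.722) and Anp32a (0.710), and for Atp1b1 Phf7 (0.697), Slc23a3 (0.690) and Rxra (0.680). These were taken from 6242 probe sets with 1 gene symbol and are a description of these arrays.

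Other genes of the same pathways were followed as 4 lists. Of 27 tested glucocorticoid target genes, 5 rose and none fell at 2 h in room air, with a median log2 change of 0.80 over the list, where 4.24% of all tested probe sets passed and their median was 0.02. Besides Sgk1 they were Dusp1, a phosphatase that inactivates MAP kinases (3.13), Errfi1 (2.29), the clock gene Per1 (1.76) and the transcription factor Klf9 (1.16). Fkbp5 was among the 22 that did not pass. At 6 h, 6 rose and none fell (median 0.95, against -0.04 and 1.02% passing over all probe sets), and the 3 of smallest p were Dusp1 (2.45) and the metallothioneins Mt2 (2.07) and Mt1 (1.99). At 12 h, 3 rose and 1 fell (median 0.43, 1.34% of all passing), with Angptl4 (2.02) and Gpx3 (1.51) higher and Cdkn1c, a cyclin-dependent kinase inhibitor, lower (-1.34). At 24 h, where 0.577% of all passed, Sgk1 and Anxa1 (1.74), which encodes annexin, rose. Neutrophil markers passed at these times too. Of the 5, S100a8 and S100a9 rose at 2 h, 6 h and 12 h and S100a8 at 24 h, with list medians of 0.66 at 2 h and 1.46 at 6 h. Ngp, Camp and Ltf passed at none of these times. Ltf went the other way at 2 h (-0.35), 6 h (-0.49) and 12 h (-0.86). The summed signal of the 5 ranged between 328 and 470 at F21, between 860 and 1037 at 2 h and between 1391 and 2403 at 6 h. None of the 5 was under the floor of 10 on all 3 arrays of a group.

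In 10% oxygen 5 targets rose and none fell at 2 h, with a median of 0.13 over the list, and 8 rose and 1 fell at 6 h, with a median of 0.82, where 2.65% and 6.31% of all tested probe sets passed. S100a8 rose at both times and S100a9 at 6 h, while Ngp, Camp and Ltf passed at neither. Ltf was -0.51 at 2 h and 0.62 at 6 h. The neutrophil sum lay between 410 and 598 at F21, between 502 and 1064 at 2 h and between 937 and 1378 at 6 h. At 2 h the 3 of smallest p were Dusp1 (2.68), Gpx3 (1.78) and Txnip (1.53). In liver 4 rose at 2 h and 5 at 6 h of 29 tested, and none fell, where 0.913% and 1.84% of all passed. The neutrophil sum in liver was 18702 to 20256 at F21 and lower after birth, between 14594 and 17431, with 1 of the 5 markers lower at each time. The part of neutrophils in the target list was not tested. The 3 of smallest p at both times were G6pc, Tat and Pck1, enzymes of glucose release and amino acid breakdown that glucocorticoids induce in liver, with log2 changes of 1.98, 2.28 and 2.10 at 2 h.

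**Figure D5:**
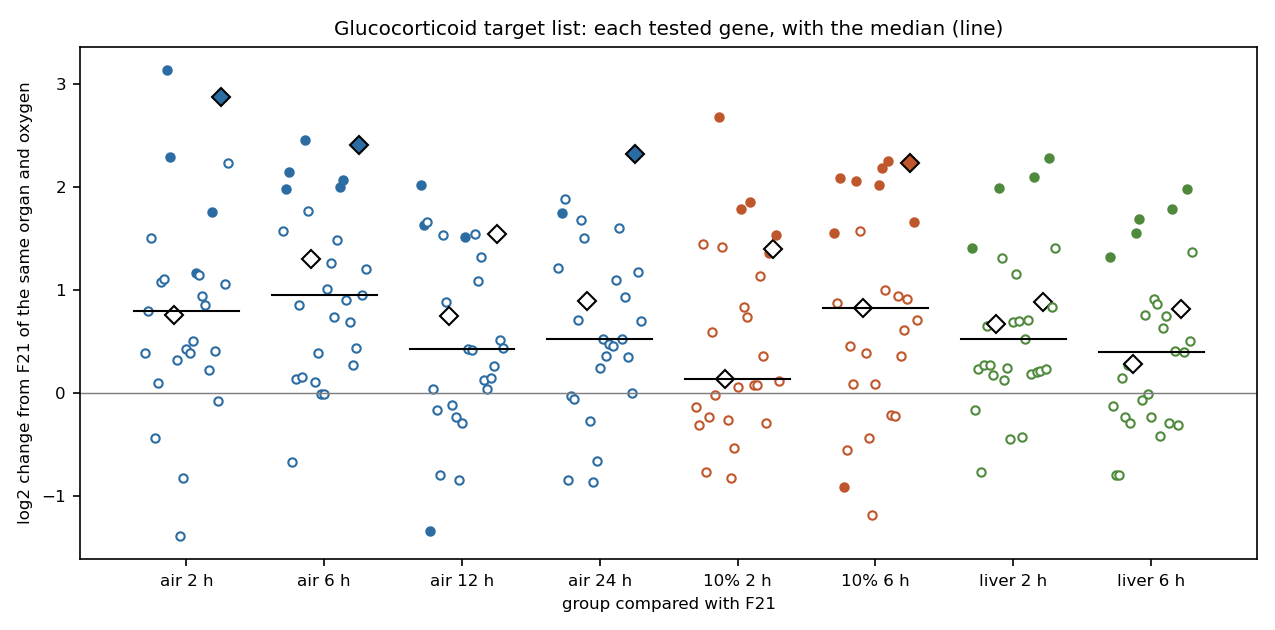
Log2 change from F21 of the same organ and oxygen setting for each tested gene of the glucocorticoid target list in 8 comparisons. Filled symbols had an adjusted p under 0.05, diamonds are Sgk1 and Fkbp5, and the line is the median of the list. The medians were 0.80 at 2 h in room air, 0.13 at 2 h in 10% oxygen and 0.53 at 2 h in liver.

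Of 16 tested genes for the receptor, steroid enzymes and chaperones, none rose and 2 fell at 2 h in room air (median -0.10, 4.24% of all passing). They were Hspa8, a constitutive heat shock chaperone (-0.72), and Fkbp4, the co-chaperone that works against Fkbp5 (-0.91). Fkbp4 also fell at 2 h in 10% oxygen (-1.01) and in liver at 2 h (-0.92) and 6 h (-0.84). Of 12 tested ion and water transport genes, Atp1b1 was the 1 that passed at 2 h in room air (median 0.39, 4.24% of all passing). None passed at 6 h or 24 h, where 1.02% and 0.577% of all passed. Aqp1 was the 1 that passed at 12 h (1.34% of all passing) and at 6 h in 10% oxygen (6.31% of all passing). Of 16 tested regulators of the sodium channel, Sgk1 was the 1 that passed at 2 h, 6 h and 24 h in room air. At these times 4.24%, 1.02% and 0.577% of all tested probe sets passed. At 6 h in 10% oxygen 1 of the 16 regulators rose and 2 fell, where 6.31% of all tested probe sets passed. Sgk1 rose, and Nedd4, a ubiquitin ligase (-1.27), and Gnas, the stimulatory G protein (-0.87), fell. At F21 in 10% oxygen against room air, Gnas (0.90) and the transcription factor Cebpb (1.47) were higher, and the potassium channel Kcnq1 (-1.27), H6pd, which supplies Hsd11b1 with its cofactor (-0.68), Hspa8 (-0.98) and the lipocalin Lcn2 (-1.50) were lower. Here 2 of 12 transport genes and 2 of 16 for the receptor, enzymes and chaperones were lower. Of 16 regulators 1 was higher, and of 27 targets 1 was higher and 1 lower, where 7.13% of all probe sets passed. The Gapdh ratio of these 10% oxygen arrays ran from 1.21 to 9.40. Between the organs at F21, 6 transport genes were higher in lung and 1 lower, and 9 channel regulators were higher and 1 lower, of 12 and 16 tested, where 28% of all probe sets passed and their median was 0.14. The transport genes of smallest p were Fxyd1 (-1.49), Slc12a2 (2.60) and Atp1b3 (0.77), and the regulators Cav1 (4.19), Gnas (1.66) and Nedd4l (1.44).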

How the data were processed

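The deposited table held a MAS5 signal, an intensity that the authors scaled to a target of 100 per array, for 12488 probe sets on 33 arrays. The submitters' processing notes name MAS5, and no raw scans were used here. The 66 control probe sets were set aside. Signals under 10 were set to 10 and log2 transformed. A probe set was tested where it was among the brightest 40% on at least 3 arrays of the fit. Probe sets were named from the platform annotation (10833 with 1 symbol, 396 with several, 1193 with none). Comparisons were contrasts of group means fitted with limma 3.58.1 in R 4.3.3, over all 24 lung arrays, all 9 liver arrays or, between organs, both, with Benjamini-Hochberg adjustment over all tested probe sets and a threshold of 0.05. The methods' test, a t-test of each pair of groups alone, was an alternative. Its own threshold was an unadjusted p under 0.01, and its calls are given after Benjamini-Hochberg adjustment unless that threshold is named. Other alternatives were quantile normalization, a filter on the brightest 30% by median or none, a floor of 1 and log2 of the signal plus 16. The compared groups alone, array weights, the Gapdh ratio as a covariate, a replicate block, another baseline and each array left out were also tried. The members, gene lists and tests were chosen with earlier results of these data known, and 2 comparisons (6 h minus 2 h in room air, and 10% oxygen minus room air at 2 h) were added after the values were seen. Named were all members, from each list the genes that passed (up to 6 of smallest p at 2 h in room air lung, up to 3 elsewhere) and the 3 probe sets most like each member. A gene with several probe sets was led by the brightest. Fits were tested on simulated data. Window sequences and positions came from RefSeq tables of GRCm38.p6, which held windows of 7 members used here, and Python 3.11 scripts searched them.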

Additional observations from a re-analysis of the deposited data

Results flagged for a closer look

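In the list of glucocorticoid target genes the lung and liver changes at 2 h differed by the interaction term of the limma fit for 2 genes. Dusp1 rose by 3.13 in room air lung and by 0.27 in liver on the log2 scale, a difference of 2.86 ± 0.58 (adjusted p = 0.0107). G6pc changed by 0.32 in lung and rose by 1.98 in liver, a difference of -1.66 ± 0.35 (adjusted p = 0.0123). No probe set of a member passed an interaction term. Groups of 3 arrays are too small for a test of outlying arrays.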

How the results depend on the processing

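The values below are numbers of member probe sets past the threshold. The number over all tested probe sets moved as well. In room air lung the limma fit over all lung arrays called 294 of 6931 at 2 h, 71 at 6 h, 93 at 12 h and 40 at 24 h. After adjustment, as in the counts below, the methods' test called 22, 2, 0 and 0. At its own threshold, an unadjusted p under 0.01, it called 464, 302, 265 and 154 of all, and 1, 4, 2 and 0 of the members. A shift in a member count is thus not particular to the members. At 2 h in room air the count of 2 became 1 by the methods' test. At 6 h the count of 1 became 3 with the compared groups alone, 2 with array weights and 0 by the methods' test. At 12 h the count of 1 became 0 with quantile normalization, with no filter and by the methods' test, and 2 with the compared groups alone and with array weights. At 24 h the count of 1 became 0 with quantile normalization, with no filter, with the compared groups alone and by the methods' test, and 2 with array weights and with the Gapdh ratio as a covariate. In 10% oxygen the 2 h count of 0 became 1 with quantile normalization and with the Gapdh covariate, and the 6 h count of 2 became 1 with the compared groups alone, with array weights and with the room air F21 lungs as baseline, and 0 by the methods' test. For F21 in 10% oxygen against room air the count of 1 became 0 with the compared groups alone, with the Gapdh covariate and by the methods' test. For the 2 h change between oxygen settings the count of 0 became 1 with the room air baseline. That baseline cancels between the changes, so this alternative equals the added direct comparison of 10% oxygen with room air at 2 h. In liver at 6 h the count of 1 became 0 by the methods' test. For F21 lung against liver the count of 2 became 1 with the compared groups alone, with the Gapdh covariate and by the methods' test, and for the 2 h change between organs the count of 0 became 1 with the compared groups alone and with array weights. In the added comparisons, 6 h minus 2 h went from 0 to 1 with the compared groups alone, with the Gapdh covariate and by the methods' test and to 2 with array weights, and 10% oxygen minus room air at 2 h went from 1 to 2 with array weights and to 0 by the methods' test. The causes were not tested.

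Leaving out 1 array at a time gave 1 to 2 at 2 h in room air, 0 to 1 at 6 h, 0 at 12 h, 0 to 2 at 24 h, 0 to 1 and 2 to 3 at 2 h and 6 h in 10% oxygen, 0 to 1 for F21 in 10% oxygen against room air, 0 to 2 for F21 lung against liver and 0 to 2 for 10% oxygen minus room air at 2 h. No called value changed sign under any alternative. With a replicate block the counts stayed 2 at 2 h and 1 at each later time in room air, and no count in the other comparisons changed. Same-numbered lung arrays of 2 groups had deviations correlated at -0.152 to 0.275 over 84 pairs (median 0.00236, with 5 above 0.1). For liver arrays the correlation was -0.0154 to 0.0946 over 9 pairs. The sample numbers thus gave little sign of a pairing, but these correlations cannot exclude that same-numbered samples shared a litter or batch. Dim probe sets limit what can be said of Nr3c1 and of the second probe sets of Atp1b1 and Aqp1.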
